A study of Homo sapiens with 3 samples.

Results

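CRY1 binding was examined at 57 genes of DNA repair and damage signalling. The genes were taken from a list of repair genes spanning 8 pathway groups, and each was scored for a CRY1 peak summit within 5 kb of any of its annotated transcription start sites (TSS) and within 50 kb of its gene body. All 20163 protein-coding genes of the GENCODE annotation on hg19 (GRCh37) were scored in the same way. The cells were C4-2, an established castration-resistant human prostate cancer line, grown in hormone-proficient medium and labelled as vehicle. Chromatin immunoprecipitation followed by sequencing (ChIP-seq) yielded 2 CRY1 libraries and 1 input library, and 1 peak list was called on the combined replicates. There was no second treatment or cell line to compare with, so every comparison below is between genes or between peaks within that list.

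CRY1 is a cryptochrome, a repressor of the circadian clock that is brought to chromatin largely by the activators CLOCK and BMAL1, which recognise the E-box CACGTG. DNA repair is divided among pathways by the lesion: recombination and end joining rejoin double-strand breaks, excision pathways remove damaged bases or bulky adducts, and mismatch repair corrects replication errors. Checkpoint kinases and chromatin mediators signal the damage and delay the cell cycle, and DNA polymerases with their clamp and loader refill the gaps that several pathways leave.

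The list held 2551 peaks, of which 2549 lay on assembled chromosomes. Because the replicates were combined before calling, no peak or distance carries a replicate error, and no test between groups was made. The read depth behind each peak was unknown, and the intervals on shares (Wilson, 95%) cover counting of genes or peaks only. The list holds no expression values against which the cell line could be checked.

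Of the 57 repair genes, 3 (5.26%, interval 1.81 to 14.4%) had a CRY1 summit no farther than 5 kb from a TSS, beside 8.22% of all protein-coding genes. These were POLD2, an accessory subunit of DNA polymerase delta, XRCC3, which acts in homologous recombination, and PMS2, a mismatch repair endonuclease. Within 50 kb of the gene body the count was 11 (19.3%, interval 11.1 to 31.3%), beside 22.1% of all protein-coding genes. The other 8 were ERCC1, ERCC2, DDB2 and XPA of nucleotide excision repair, FANCA of crosslink repair, XRCC1 of single-strand break repair, RPA2 of the single-strand binding complex, and PALB2 of recombination. Both shares lay below those of all protein-coding genes, and both intervals included them. Only POLD2 and XRCC3 held the closest protein-coding TSS to a summit within 5 kb, 2 of 57 beside 6.7% of all protein-coding genes.

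The median distance from the gene body to the nearest summit was 266 kb for the repair genes (quartiles 105 and 613 kb) and 280 kb for all protein-coding genes (quartiles 64.2 and 904 kb). Of the 57 genes, 46 had no summit within 50 kb, 18 had none within 500 kb and 11 had none within 1000 kb of the gene body. The shares of genes with a summit within 250 kb of the body were near equal, 47.4% of the repair genes and 47.8% of all protein-coding genes. At 100 kb the repair genes stood lower, at 22.8% compared with 31.1%. At 500 kb they stood higher, at 68.4% compared with 62.5%, and likewise at 1000 kb, at 80.7% compared with 77.1%. These differences were not tested.

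**Figure D1:**
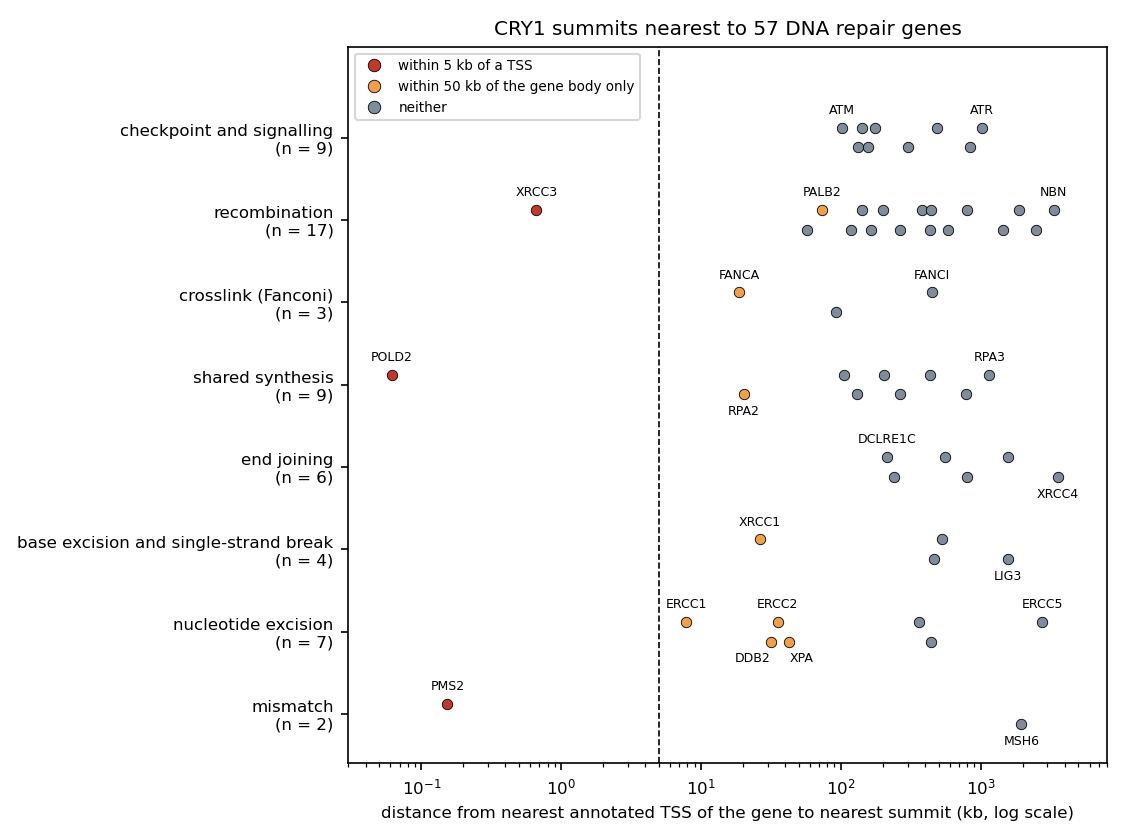
Distance in kb (log scale) from the nearest annotated TSS of each of the 57 repair genes to the nearest CRY1 summit, 1 point per gene, in 8 pathway groups. Of the points, 3 (POLD2, PMS2, XRCC3) lie left of the dashed line at 5 kb, and 4 of the 7 nucleotide excision genes are among those with a summit within 50 kb of the gene body only.

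**Figure D2:**
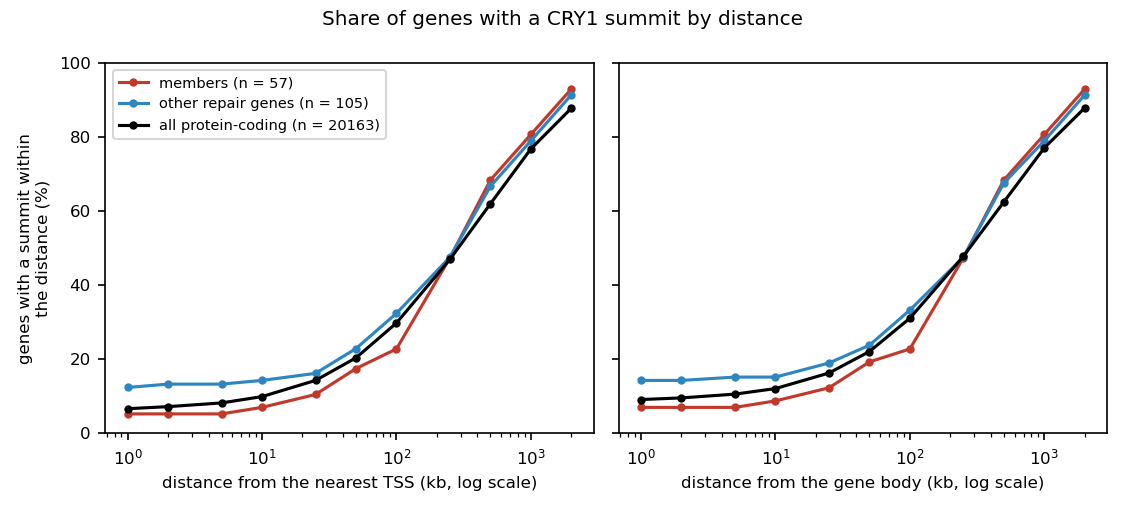
Share of genes (%) with a summit within each distance (kb, log scale) of the nearest TSS (left) or of the gene body (right), for the 57 repair genes, 105 other repair genes and all 20163 protein-coding genes. At 5 kb from a TSS the shares were 5.26, 13.3 and 8.22%, and the curves meet near 250 kb.

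POLD2 had the summit nearest to a TSS of any repair gene. Its peak, at 7:44162746–44163181, was enriched 3.85-fold over background by the authors' peak caller (−log10 q 8.08). The summit lay in an untranslated exon of POLD2, 62 bp downstream of the nearest annotated TSS and 248 bp downstream of the canonical one. By fold enrichment the peak ranked 2232 of 2551, while by −log10 q it ranked 939, so its standing depended on the measure. An E-box was centred 41 bp from the summit and an E′-box, the variant CACGTT that reads as AACGTG on the opposite strand, 1 bp from it. Both boxes are printed in capitals, because POLD2 had the summit nearest to a start of its own.
POLD2 chr7:44162843-44162872, GRCh37, plus strand: acaggctccgcaCACGTGtctaacgagtga
POLD2 chr7:44162883-44162912, GRCh37, plus strand: gcttttggctcgAACGTGcttgatggcggc

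XRCC3 had 2 summits within 50 kb. XRCC3 is one of the paralogues of the central recombinase and takes part in strand exchange and in resolving its intermediates. The first peak, at 14:104178873–104179196, was enriched 4.87-fold (−log10 q 5.25) and ranked 1501 of 2551 by fold enrichment. Its summit lay inside the gene, 2681 bp downstream of the canonical TSS and 666 bp upstream of an internal one, at a site that also carries an untranslated exon of the overlapping gene KLC1. The assignment to an XRCC3 start therefore rests on the internal TSS at the 1 kb scale and on the canonical TSS only at 5 kb. An E-box was centred 17 bp from the summit. The second peak, at 14:104195178–104195449, was weaker, with a fold enrichment of 3.35, and lay 13.4 kb upstream of the gene and 87 bp from a start of ZFYVE21, which is transcribed divergently from XRCC3. That summit had an E′-box centred 13 bp away. The E-box of the inner peak, the E′-box of the outer peak and the E′-box in the XRCC3 promoter itself, centred 87 bp from the canonical TSS, are in capitals.
XRCC3 chr14:104179110-104179139, GRCh37, plus strand: cgggaaggccagCACGTGgctgcaacgtct
XRCC3 chr14:104195209-104195238, GRCh37, plus strand: aggccctgttctCACGTTtgcttttgtgtt
XRCC3 chr14:104181861-104181890, GRCh37, minus strand: tagttagtcagtCACGTTagcgccgcttcg

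PMS2 had the strongest peak near any repair gene. The peak, at 7:6048838–6049241, was enriched 10.98-fold at its summit (−log10 q 24.67) and ranked 157 of 2551 by fold enrichment. Its summit lay 6 bp upstream of the nearest start of AIMP2, a scaffold protein of the tRNA synthetase complex, in an untranslated exon of some AIMP2 transcripts. It lay 154 bp upstream of the nearest PMS2 TSS and 235 bp upstream of the canonical one. PMS2 and AIMP2 are transcribed head to head, so the peak list alone cannot assign the summit to one of them. No E-box or E′-box was found within 50 bp of the summit. PMS2 has near-identical copies elsewhere in the genome, and 3 of the 70 stretches of 32 bases in the summit window occurred more than once, up to 4 times. In the other 14 windows near repair genes, 0 did. The 124 bases between the outermost starts of both genes are printed to show this shared promoter, with CCAAT in capitals, or ATTGG where the motif lies on the opposite strand. The printed stretch ends before the summit, and no CCAAT lay within 50 bp of the summit. CCAAT was present on either strand in 35.9% of the promoter windows of all protein-coding genes, which are 300 bases long. For the 57 repair genes the share was 49.1%.
PMS2 chr7:6048762-6048885, GRCh37, plus strand: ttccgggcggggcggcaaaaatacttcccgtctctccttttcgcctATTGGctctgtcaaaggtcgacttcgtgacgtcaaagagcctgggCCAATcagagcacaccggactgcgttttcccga

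**Figure D3:**
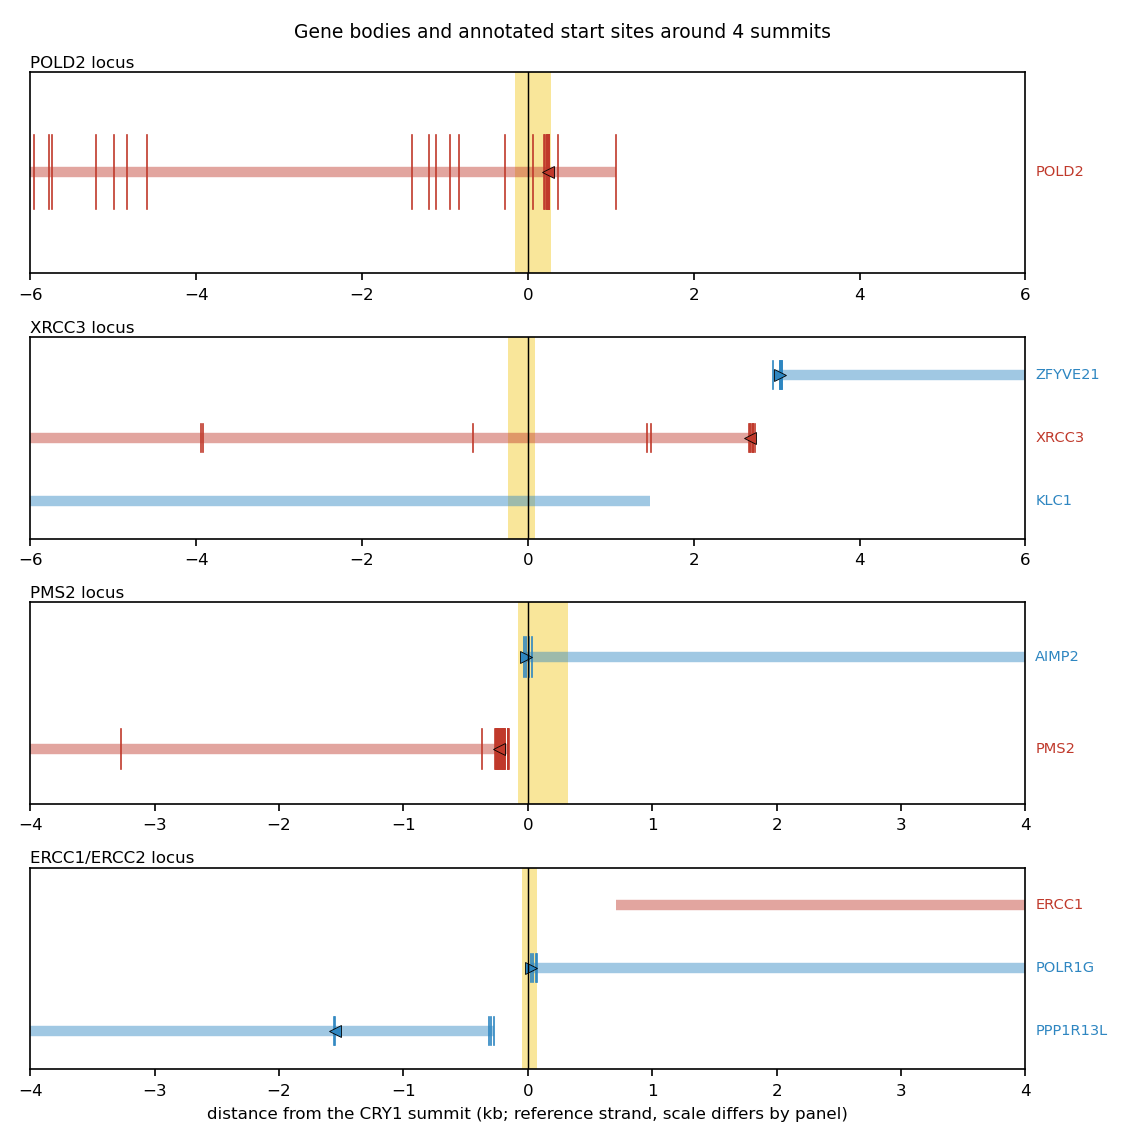
Protein-coding genes around the summit of the POLD2, XRCC3 (inner), PMS2 and ERCC1/ERCC2 peaks, as distance in kb from the summit on the reference strand (each panel to its own scale). Red bars are repair genes and blue bars other genes, ticks are annotated starts, triangles are canonical starts pointing with transcription, and the yellow band is the peak. The summit lies at the start of POLD2, inside XRCC3 and KLC1, upstream of PMS2 within the first bases of AIMP2, and at the start of POLR1G beyond the 3′ end of ERCC1.

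Nucleotide excision repair, which cuts out bulky lesions such as ultraviolet photoproducts, had the largest share of genes within 50 kb, 4 of 7 (57.1%, interval 25.1 to 84.2%), and 0 of 7 within 5 kb of a TSS, beside 22.1 and 8.22% of all protein-coding genes. Its median distance from the gene body was 41.8 kb, the shortest of the 8 groups. ERCC1, the partner subunit of the ERCC4 nuclease, was the gene just outside the 5 kb window, with its nearest TSS 7855 bp from a summit. That summit, in a peak at 19:45909835–45909957 with a fold enrichment of 4.46, lay 712 bp beyond the 3′ end of ERCC1 and 22 bp from the start of POLR1G, an RNA polymerase I subunit. A second peak at 19:45909567–45909693 (fold enrichment 4.33) lay 49 bp from a start of PPP1R13L. The same 2 peaks lay 35.7 and 35.5 kb upstream of ERCC2, the helicase of the repair factor TFIIH, so the counts for ERCC1 and ERCC2 are not independent. One more ERCC1 peak, at 19:46010191–46010735, had a fold enrichment of 5.50 and lay 28.6 kb upstream of the gene. Its summit was 83.5 kb upstream of the canonical ERCC1 TSS and 95 bp from the start of VASP, an actin regulator.

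DDB2, which recognises ultraviolet damage, had a summit 30.2 kb beyond its 3′ end. The peak, at 11:47290896–47291148 with a fold enrichment of 5.63, lay 27 bp from a start of MADD and held an E-box 7 bp from its summit. XPA, which verifies the lesion, had 2 peaks, 41786 and 41973 bp beyond its 3′ end. The first of these, at 9:100395392–100395652 with a fold enrichment of 3.33, lay 178 bp downstream of a start of TSTD2 and held an E-box 4 bp from its summit. The second, at 9:100395087–100395237 with a fold enrichment of 4.44, held none. The other members of the pathway were far from a summit: ERCC4 at 349 kb, XPC, the global damage sensor, at 444 kb, and ERCC5, a nuclease, at 2747 kb. Of the 4 genes within 50 kb, ERCC1 and ERCC2 lie on chromosome 19, where 29.5% of all protein-coding genes had a summit within 50 kb. The E-boxes at the peaks near ERCC1/ERCC2, DDB2 and XPA are printed in capitals. Each lay near a start of another gene (POLR1G, MADD and TSTD2), and 47.8% of all summits had an E-box. The peaks at PPP1R13L and VASP and the second XPA peak had none.
ERCC1/ERCC2 chr19:45909878-45909907, GRCh37, plus strand: cccctttggatcCACGTGgtctgcaacctg
DDB2 chr11:47290947-47290976, GRCh37, plus strand: ggcggtgcacctCACGTGcatgtgtagcat
XPA chr9:100395355-100395455, GRCh37, plus strand: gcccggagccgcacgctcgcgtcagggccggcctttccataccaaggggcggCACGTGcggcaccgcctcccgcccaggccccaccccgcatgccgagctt

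The 17 recombination genes had a median distance of 382 kb from the gene body to a summit. Of these, 2 (11.8%, interval 3.29 to 34.3%) lay within 50 kb, beside 22.1% of all protein-coding genes. Besides XRCC3, 1 gene lay within 50 kb, PALB2, which bridges BRCA1 and BRCA2. Its summit was 45.8 kb beyond the 3′ end of the gene, at the start of EARS2 (0 bp), in a peak at 16:23568375–23568730 with a fold enrichment of 4.85 and an E-box 18 bp from the summit. PALB2 was the gene just inside the 50 kb window. BLM, a helicase that dissolves recombination intermediates, was just outside it at 50175 bp, with a peak 2247 bp from a start of FURIN. BRCA1 was 142 kb and BRCA2 266 kb from a summit. In the break-sensing complex, RAD50 was 406 kb from a summit, MRE11 1872 kb and NBN, the farthest of the group, 3306 kb. RAD50 lay between the quartiles of all protein-coding genes, 64.2 and 904 kb. The study reported, by PCR after ChIP, CRY1 binding at MRE11 (as MRE11A), RAD50 and ATM soon after irradiation. Binding at XRCC3 and POLD2 was reported at a later time after irradiation. The study also reported binding at MRE11, ATM, POLD2 and XRCC3 in hormone-depleted and in androgen-treated cells. Per the study, its mapping of CRY1 binding, which gave 2551 sites, guided the choice of sites for the PCR after irradiation. In the present list of 2551 peaks, ATM, RAD50 and MRE11 lay 101, 406 and 1872 kb from the closest summit. The list holds no irradiated, hormone-depleted or androgen-treated cells, and the PCR regions were not compared with it. Whether those regions overlap a listed peak was therefore not tested. Of the other recombinase paralogues, XRCC2 lay 181 kb, RAD51C 443 kb, RAD51B 613 kb and RAD51D 1442 kb away. The remaining genes, which act in end resection, strand annealing and chromatin remodelling (RBBP8, RAD54B, RAD54L, RAD52 and EXO1), ranged from 108 to 2475 kb.

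None of the 9 checkpoint and signalling genes had a summit within 50 kb (0 of 9, interval up to 29.9%, which includes the 22.1% of all protein-coding genes). ATM, the kinase that responds to double-strand breaks, was the nearest at 101 kb. Its nearest peak, at 11:107992262–107992753, had a fold enrichment of 6.86 and a summit 2 bp from a start of ACAT1, a mitochondrial thiolase. CHEK2, the kinase downstream of ATM, lay 141 kb from a peak at 22:29279474–29279867, which had a fold enrichment of 9.72, an E-box and a summit 30 bp from a start of ZNRF3. The farthest were TP53BP1, a mediator that favours end joining, at 828 kb and ATR, the kinase of replication stress, at 1022 kb. CHEK1, the kinase downstream of ATR, lay 437 kb from its nearest summit. The chromatin mediators MDC1, RNF168, H2AX and RNF8 lay between 128 and 302 kb. The median of the group was 173 kb.

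Among the 9 genes of shared repair synthesis, POLD2 and RPA2 lay within 50 kb and the median was 203 kb. That share (22.2%, interval 6.32 to 54.7%) was near the 22.1% of all protein-coding genes. RPA2, a subunit of the complex that coats single-stranded DNA, had a summit 20.4 kb upstream, in a peak at 1:28261417–28261946 with a fold enrichment of 6.33, 15 bp from a start of SMPDL3B and with an E-box 30 bp from the summit. The other subunits were farther, RPA1 at 105 kb and RPA3 at 1152 kb. Of the other subunits of polymerase delta, POLD1, the catalytic subunit, lay 432 kb and POLD3 761 kb from a summit. The sliding clamp PCNA lay at 259 kb, RFC1 of its loader at 203 kb and POLE, the catalytic subunit of polymerase epsilon, at 129 kb. In both complexes 1 of the 3 listed subunits had a summit within 50 kb, too few genes to compare with the share of all protein-coding genes.

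Of the 3 Fanconi genes, 1 (33.3%, interval 6.15 to 79.2%) lay within 50 kb, beside 22.1% of all protein-coding genes. FANCA, a subunit of the core ligase complex, had peaks beyond its 3′ end. The first, 5.65 kb away at 16:89787392–89787474, had a fold enrichment of 3.51 (−log10 q 1.78) and lay 26 bp from a start of ZNF276. The second, 24.7 kb away at 16:89768231–89768553, had a fold enrichment of 4.22 (−log10 q 4.74) and lay 287 bp from a start of SPATA2L. Neither summit had an E-box. The ligase substrates FANCD2 and FANCI lay 92.8 and 440 kb away.

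XRCC1, the scaffold of single-strand break repair, was the only one of 4 base excision and single-strand break genes within 50 kb. Its peak, at 19:44031387–44031728, had a fold enrichment of 7.53 and lay 16.0 kb beyond the 3′ end of the gene, 66 bp upstream of ETHE1. LIG1, a ligase, lay 464 kb from a summit, PARP1, the break sensor, 532 kb and LIG3, the ligase partner of XRCC1, 1554 kb. The nearest peak to LIG1 was among the stronger of the list, with a fold enrichment of 12.74, 65 bp from a start of the clock-controlled gene DBP. The XRCC1 summit had no E-box but 4 GC boxes, the motif GGGCGG that reads as CCGCCC on the opposite strand. GC boxes were present in 27.0% of all summit windows of 101 bases. The window is printed as an example of a peak without the clock motif, with the GC boxes in capitals.
XRCC1 chr19:44031398-44031498, GRCh37, plus strand: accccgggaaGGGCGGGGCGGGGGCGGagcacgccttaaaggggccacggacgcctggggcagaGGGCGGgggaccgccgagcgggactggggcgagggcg

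The 6 end joining genes were the farthest group but for the 2 mismatch genes, with a median of 675 kb and 0 of 6 within 50 kb (interval up to 39.0%, which includes the 22.1% of all protein-coding genes). DCLRE1C, a nuclease that trims ends, was nearest at 214 kb. XRCC6 and XRCC5, the subunits of the end-binding Ku complex, lay 239 and 795 kb away. The kinase PRKDC lay at 555 kb, the ligase LIG4 at 1568 kb and its partner XRCC4, the farthest of the 57 genes, at 3564 kb. In mismatch repair, PMS2 and MSH6 lay at opposite ends of the range, at 154 bp and 1954 kb.

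In all, 15 peaks lay within 50 kb of the body of a repair gene. All 15 had their summit within 1 kb of a protein-coding TSS, compared with 63.3% of the 2362 peaks within 50 kb of any protein-coding gene. For 13 of the 15 the closest protein-coding TSS was that of a gene outside the list, and for 2 that of POLD2 or XRCC3. Their fold enrichment had a median of 4.46 (range 3.33 to 10.98), compared with 5.18 for all peaks, and 5 of the 15 were above the median of all peaks. Their median width was 323 bp, compared with 181 bp. By median, the peaks near repair genes were thus wider and of lower enrichment than the list as a whole. Their widths ran from 83 to 545 bp, and the differences were not tested. The 5 above the median were those near PMS2, XRCC1, RPA2 and DDB2 and the ERCC1 peak at VASP.

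**Figure D4:**
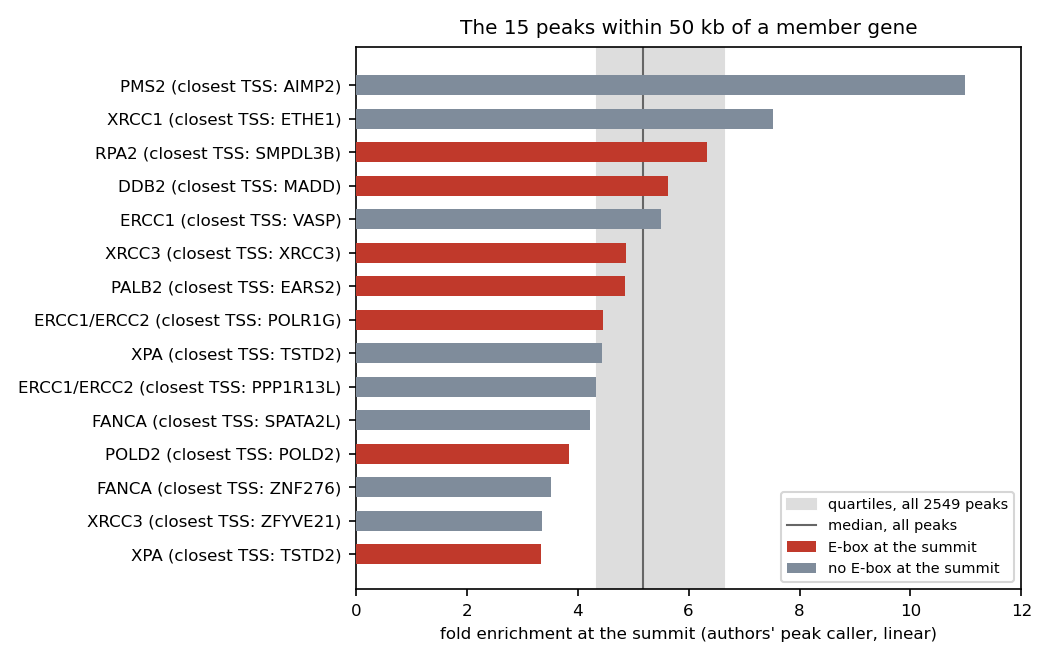
Fold enrichment at the summit (linear, from the authors' peak caller) of the 15 peaks within 50 kb of a repair gene, 1 bar per peak, labelled with the repair gene and the gene of the closest TSS. Red bars had an E-box within 50 bp of the summit (7 of 15), and the grey band and line mark the quartiles and median of all 2549 peaks. PMS2 at 10.98 and XRCC1 at 7.53 lie above the band.

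An E-box lay within 50 bp of the summit in 7 of these 15 peaks (46.7%, interval 24.8 to 69.9%), beside 47.8% of all summits. The 7 were near POLD2, XRCC3, RPA2, DDB2, PALB2, ERCC1/ERCC2 and XPA. An E′-box was found at 2, those near POLD2 and ZFYVE21, 13.3% compared with 6.63% of all summits. A GC box was found at 3 of the 15 and CCAAT at 1, compared with 27.0 and 8.91% of all summits. Among the 1494 peaks within 1 kb of a protein-coding TSS, 44.2% had an E-box and 6.02% an E′-box. A GC box was found at 38.3% and CCAAT at 7.5% of those 1494. The motif content of peaks near repair genes was thus close to that of the list for the E-box, while the counts for the other motifs were too few to rank. The RPA2 and PALB2 boxes, which complete the set of E-boxes at these peaks, are in capitals.
RPA2 chr1:28261591-28261620, GRCh37, plus strand: gttctgctcaggCACGTGgccacagaaaac
PALB2 chr16:23568669-23568698, GRCh37, plus strand: gatggaatagcaCACGTGggcttctccctg

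The promoters of the repair genes were also read for the E-box without regard to the peaks. In the window from 250 bases before to 50 after the canonical TSS, 4 of 57 genes (7.02%) held CACGTG, beside 8.74% of all protein-coding genes. These were BRCA2, RAD50, RPA1 and LIG3, with the box centred 45, 1, 95 and 69 bp from the TSS. None of the 4 had a summit within 5 kb (interval up to 49.0%), and their nearest TSS lay 266, 434, 105 and 1561 kb from one. Among all protein-coding genes, 441 of the 1762 with a promoter E-box had a summit within 5 kb, 23.1 to 27.1% by its interval, compared with 6.61% of those without. The interval of the 4 genes includes both of these shares. In turn, POLD2, XRCC3 and PMS2 had no E-box in the promoter window of the canonical TSS. The E-boxes at the POLD2 and inner XRCC3 summits lay outside that window. The 4 promoter boxes are printed in capitals, as repair gene E-boxes at which the list held no peak.
BRCA2 chr13:32889585-32889614, GRCh37, plus strand: gcgtcacggcgtCACGTGgccagcgcgggc
RAD50 chr5:131892656-131892685, GRCh37, plus strand: ggcctagaggccCACGTGatccgcagggcg
RPA1 chr17:1733189-1733218, GRCh37, plus strand: ccatgggtgggtCACGTGggccgcgcctcg
LIG3 chr17:33307447-33307476, GRCh37, plus strand: gcaactacgaccCACGTGgcagacgggggc

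Gene arrangement, length and number of starts, which the selection did not use, were also read. Of the 57, 16 (28.1%) had another protein-coding gene starting head to head within 1 kb upstream, beside 9.35% of all protein-coding genes and 33.3% of the 105 other repair genes described last. The 16 included ATM with NPAT, BRCA2 with ZAR1L, CHEK2 with HSCB, MRE11 with ANKRD49 and PRKDC with MCM4, as well as PMS2 with AIMP2 and XRCC3 with ZFYVE21. Of the 16, 2 (12.5%) had a summit within 5 kb, compared with 1 of the 41 others (2.44%). Their intervals, 3.50 to 36.0% and 0.43 to 12.6%, overlap. Over all protein-coding genes the same shares were 11.8 and 7.85%. The 2 head-to-head genes were PMS2 and XRCC3. The XRCC3 summit lay inside the gene, 2681 bp downstream of the canonical TSS, and not between the head-to-head starts. The repair genes were longer (median 54.7 compared with 27.2 kb) and had more annotated starts (median 15 compared with 5) than all protein-coding genes. The other repair genes lay between, with medians of 37.8 kb and 9 starts. Genes with at least 15 starts had a summit within 5 kb in 13.4% of cases over all protein-coding genes, and those with fewer in 7.5%. The share of the repair genes was 5.26%, below both.

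A further 105 repair genes outside the 57, most of the same pathways and 9 of translesion synthesis and damage reversal, were read as a reference. Of these, 14 (13.3%, interval 8.11 to 21.1%) carried a summit at most 5 kb from a TSS and 25 (23.8%) within 50 kb of the body, with a median distance of 285 kb. By pathway they included RAD9A and RAD17 of the checkpoint clamp and its loader with SHLD2 of the shieldin complex, POLB and PARP3 of base excision and break repair, MUS81, a recombination nuclease, GTF2H1, CUL4A, XAB2 and ERCC6 of nucleotide excision, POLE4 of polymerase epsilon, and the translesion polymerases REV1 and POLI. Fold enrichment was highest at SHLD2 (11.4), RAD9A (9.0) and PARP3 (8.86) and lowest at ERCC6 (3.06). For SHLD2, PARP3 and MUS81 the closest start belonged to another gene (GLUD1, RRP9 and CFL1). For 10 of the 14 it was their own, as it was for 2 of the 3 genes within 5 kb among the 57. The shares of the 2 sets, 5.26 and 13.3%, have intervals that overlap, and the difference between them was not tested.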

How the data were processed

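CRY1 ChIP-seq was performed by the authors in C4-2 cells. The deposited file is 1 peak list. Per the study's methods, reads were aligned to hg19 with bowtie2 at default settings, and MACS2 called peaks on the combined replicates at q < 0.05; use of the input as control, duplicate removal and excluded regions were not given in the sources used here. The deposited columns are a score, a fold enrichment (a linear ratio at the summit), and −log10 p and −log10 q values, all computed by the authors per peak. A read that matches several sites is placed at 1 of them by this aligner, which can misplace peaks in repeated sequence.

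Summits were compared here with GENCODE release 44 mapped to GRCh37 (python 3.11.15, pandas 2.3.3, pysam 0.24.0). The 282 coding genes without a canonical transcript were given their gene start. The 2 peaks on unplaced contigs were left out, except from the ranks, which are over all 2551 peaks. Gene bodies on chromosomes without a summit counted as farther than any distance. Motifs were searched on both strands within 50 bp of summits. Depth per sample is unknown from the list. Genes were named by rule: every gene within 5 kb of a TSS or 50 kb of the body, the nearest and farthest of each pathway, those next to each threshold, genes with a promoter E-box, and ATM, MRE11, RAD50, CHEK2, XRCC3 and POLD2. 1 gene of the reference list is counted but not reported here. Further genes named with their distances were added to complete each pathway after their values were seen. The repair genes, the reference list and the rules were chosen with earlier results of these data known, and some of the genes had been followed up by the study. The distance code was tested on simulated data. Other windows, thresholds, transcript sets and motif definitions were tried.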

Additional observations from a re-analysis of the deposited data

How the results depend on the processing

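The count of 3 repair genes with a summit within 5 kb of a TSS stayed within 1.5 times in 9 of 12 alternatives. With peaks enriched at least 5-fold it was 1 (PMS2). It was 6 of 57 within 25 kb, and 1 of 48 without the 9 genes that the study had followed up, which include POLD2 and XRCC3. The share of all protein-coding genes was then 5.49, 14.3 and 8.22%. The count of 11 within 50 kb of the gene body stayed in 7 of 11 alternatives. With peaks enriched at least 5-fold it was 5 (all protein-coding genes 15.7%). It was 2 for summits inside the gene (6.85%), 5 within 10 kb (12.1%) and 7 within 25 kb (16.3%). The median distance of 266 kb stayed in 5 of 6 alternatives and was 406 kb with peaks enriched at least 5-fold (all protein-coding genes 484 kb). Promoter E-boxes were found in 11 genes with a window from 1000 bases before to 100 after the TSS (19.5% of all) and in 11 with any annotated TSS (21% of all), where more sequence is read. The count of 7 peaks with an E-box stayed in all 4 alternatives (5 to 8). In none of the alternatives named here did the share of repair genes within 5 kb or 50 kb exceed that of all protein-coding genes. Leaving out a replicate could not be done because the peaks were called on combined libraries. No paired analysis was possible because 1 pooled list holds no values per replicate. Depth is unknown, so a missing peak is a missing call at this depth, and binding below the threshold was not measured.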
